A study of Mus musculus with 70 samples.

Results

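Orexin and melanin-concentrating hormone (MCH) are peptides of the lateral hypothalamus, and the 5 genes described here encode their precursors and receptors: Hcrt (orexin precursor), Pmch (MCH precursor), Hcrtr1 and Hcrtr2 (orexin receptors 1 and 2) and Mchr1 (MCH receptor 1). They were chosen by name, though with earlier results of these data known, and are 5 of the 34677 genes in the table of gene levels. Expression was measured by mRNA sequencing of 70 mouse libraries in 24 groups, with no mutant animal or culture and no treated animal. The adult libraries were 57, from 18 brain regions of male C57BL/6 mice (C57BL/6NTac in the study's methods) at postnatal day (P) 56. The embryonic libraries were 9, from C57BL/6 embryos (likewise C57BL/6NTac) at embryonic day E14.5, and comprised terminal and peduncular hypothalamus (THy-PHy, 3 libraries), hindbrain (H, 3), midbrain (M, 2) and forebrain (F, 1). The remaining 4 came from mouse embryonic stem cells (mESCs), with 2 libraries from each of the C57BL/6 clones B6-1 and B6-2. By the study's methods, the medium of these cells held leukemia inhibitory factor and other added compounds.

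The adult hypothalamus was sampled as the lateral hypothalamic area (LHA, 3 libraries), the paraventricular (PVH, 2), dorsomedial (DMH, 4), ventromedial (VMH, 2) and arcuate (ARH, 3) nuclei. Cortex was sampled as the anterior cingulate area (ACA, 3), frontal pole (FRP, 3) and entorhinal area (ENT, 3). The cerebellum was sampled as central lobule II (CENT2, 4), culmen (CUL4-5, 4), uvula (UVU, 3), flocculus (FL, 4) and cerebellar nuclei (CBN, 3). The other adult regions were the nucleus accumbens (ACB, 3), ventral tegmental area (VTA, 3), parabrachial nucleus (PB, 3), nucleus of the solitary tract (NTS, 4) and dorsal vagal complex (DVC, 3). Brain tissue came from small punches of frozen sections pooled over several animals, apart from 1 ACB library made from 1 mouse, so the spread between libraries is the spread between pools. Fewer mice were used than adult libraries and fewer embryos than tissue pieces pooled, so libraries of different regions hold tissue of the same animals and are not fully independent, and p-values do not allow for this. The adult libraries were collected in 5 sample batches and the embryonic ones in 3 others. A punch can hold tissue of neighbouring nuclei. In such bulk tissue, fewer cells of a type and less RNA per cell cannot be told apart.

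Orexin neurons and MCH neurons are separate, intermingled populations of the lateral hypothalamus that project through most of the brain. Orexin promotes wakefulness and feeding, and its loss causes narcolepsy, whereas MCH promotes feeding and is released during sleep. Orexin receptors couple mainly to Gq and excite their target cells, orexin receptor 1 being the prominent form of the noradrenergic locus coeruleus and orexin receptor 2 that of the histamine neurons. MCH receptor 1 couples to Gi and Gq and is abundant in the striatum and cortex.

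Total estimated counts ran from 9074581 to 22229582 per library, with a median of 17016935. The first VTA library stood apart, with 39.6% of its TPM, a measure of transcript abundance scaled to length and library size, from mitochondrial genes against a median of 7.49% and at most 22.6% in any other library. Markers of the labelled nuclei were present, but several were shared with neighbouring punches. The summed TPM of Agrp, Pomc and Ghrh, which mark the ARH, was 621 to 1000.5 in ARH and at most 63.1 in the other nuclei. That of the VMH markers Nr5a1 and Fezf1 was 50.04 to 108 in VMH and 50.9 to 57.7 in ARH, against 0.888 to 1.59 in LHA. That of the PVH markers Sim1, Oxt and Avp was 677 to 3150 in PVH and 342 to 2520 in ARH. The DMH marker Ppp1r17 was lower in DMH (3.52 to 14.3 TPM) than in ARH (19.2 to 27.6 TPM), and stood at 12.3 and 44.4 TPM in VMH, so it did not set DMH apart. No list of markers was drawn up for LHA. Of 8 lateral hypothalamic peptide genes tested there against the other nuclei, 1 was called higher (Nts) and 3 lower (Gal, Trh and Npvf). Of all genes, 2.32% were called higher and 2.73% lower.

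Levels are given in TPM, which is scaled to transcript length and so allows genes to be compared within a library. The test was edgeR's quasi-likelihood test on gene counts with Benjamini-Hochberg adjustment over the 19980 genes tested. A gene was called where the adjusted p was under 0.05 and the absolute log2 fold change over 1.

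Hcrt and Pmch were almost confined to the adult hypothalamus among the adult regions sampled, and both were highest in LHA. Hcrt encodes the common precursor of orexin A and orexin B. Its gene (ENSMUSG00000045471) lies on the minus strand of chromosome 11 at chr11:100761069-100762931 (GRCm38). Pmch encodes the precursor of MCH and of neuropeptide E-I, and its gene (ENSMUSG00000035383) lies on the plus strand of chromosome 10 at chr10:88091072-88092375. The 250 bases upstream of each start site are shown because both genes are active in the same region, and the capitals mark the TATA motif. They were read from RefSeq promoters of GRCm38.p6, for Hcrt at chr11:100762932-100763181 and for Pmch at chr10:88090822-88091071, 5′ to 3′ on the gene's own strand.
Hcrt: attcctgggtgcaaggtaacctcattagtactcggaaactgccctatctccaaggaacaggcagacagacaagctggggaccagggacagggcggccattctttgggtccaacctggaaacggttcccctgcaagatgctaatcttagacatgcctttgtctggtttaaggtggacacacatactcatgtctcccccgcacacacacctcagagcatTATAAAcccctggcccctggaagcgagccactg
Pmch: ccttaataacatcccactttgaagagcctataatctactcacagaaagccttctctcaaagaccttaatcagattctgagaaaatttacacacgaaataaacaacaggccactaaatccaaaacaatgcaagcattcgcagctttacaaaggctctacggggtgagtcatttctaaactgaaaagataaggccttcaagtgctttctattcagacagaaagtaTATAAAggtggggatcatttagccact

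The motif searched was TATAAA, on either strand (TTTATA on the other). It lay at -33 to -28 from the start in Hcrt and at -27 to -22 in Pmch, and it was absent from the same window of Hcrtr1, Hcrtr2 and Mchr1. Of 32817 RefSeq promoter windows of this length, 4060 (12.4%) held it. The homeodomain core TAATTA, which reads the same on both strands, was in none of the 5 genes' windows and in 4.85% of all windows. These matches describe the letters only.

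In LHA, Hcrt was at 915, 1534 and 1889.8 TPM in the 3 libraries, resting on 3866 to 8007 counts. The VMH libraries were at 659 and 939 TPM. The DMH libraries were at 451, 120, 388 and 281 TPM. The 2 highest LHA libraries lay above every library of the other nuclei, and the lowest LHA library lay between the VMH values. In ARH, Hcrt was at 13.2, 47.7 and 40.9 TPM, below every DMH library. In PVH it was at 0.784 and 0.276 TPM, which are 3 counts and 1 count, a level also seen outside the hypothalamus. Over the sum of the 24 group means, LHA held 55.7% of Hcrt, VMH 30.8%, DMH 11.9% and ARH 1.31%.

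Hcrt outside the hypothalamus was near the limit of detection. Among the 43 adult libraries of the other regions the median was 0.295 TPM and the highest 1.89 TPM, or 9 counts. Over all groups, 20 libraries had no Hcrt count.

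Pmch was several times more abundant than Hcrt in each nucleus. The LHA libraries were at 3871, 4565 and 5180.1 TPM (22915 to 30741 counts), and the VMH libraries at 3454 and 3595 TPM. All 3 LHA libraries lay above both VMH libraries. The DMH libraries were at 1462, 358, 1879.95 and 1172 TPM and the ARH libraries at 661, 830 and 740 TPM, so that these nuclei overlapped and their means of 1218 ± 643 (SD, n = 4) and 743 ± 84.7 (SD, n = 3) TPM differed by less than the spread. PVH had 95.8 and 16.3 TPM, on 513 and 83 counts. LHA held 44.8% of the sum of Pmch group means, VMH 34.8%, DMH 12.0% and ARH 7.34%. In the adult regions outside the hypothalamus the median was 0.905 TPM and the highest library 6.10 TPM (31 counts).

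**Figure D1:**
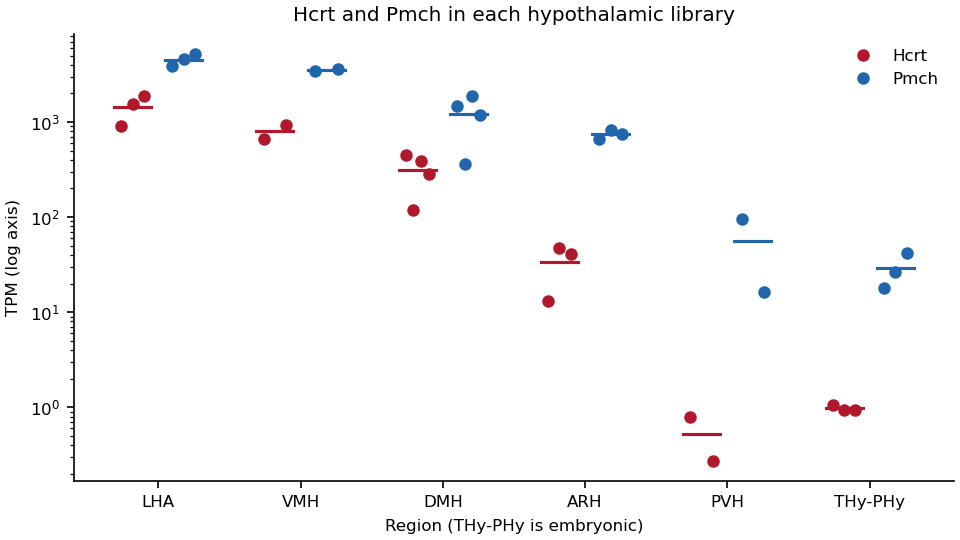
Hcrt and Pmch in every library of the adult hypothalamic nuclei and of THy-PHy, in TPM on a log axis, by group. Points are libraries and lines are group means. Mean Hcrt is 1446 ± 493 TPM in LHA and 33.9 ± 18.3 TPM in ARH (SD, n = 3 each). In VMH it is 799 ± 198 TPM (SD, n = 2) and in DMH 310 ± 145 TPM (SD, n = 4). Hcrt is near 0 in PVH and THy-PHy, while Pmch stays at 743 TPM in ARH.

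The first comparison asked whether the peptide genes mark LHA among the adult hypothalamic nuclei. Averaged over PVH, DMH, VMH and ARH on the log2 scale, with each nucleus weighted equally, Hcrt was higher in LHA by 5.04 (SE 0.25, edgeR adjusted p = 2.94e-21) and Pmch by 2.89 (SE 0.26, edgeR adjusted p = 9.57e-13). Both were called higher, as were 2.32% of all genes tested. The size of these values leans on PVH and ARH, where the peptides were low, and nucleus by nucleus the picture differed.

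Against DMH, where 1.31% of genes were called higher in LHA, Hcrt was higher in LHA by 2.32 (SE 0.27) and Pmch by 2.00 (SE 0.33) on the log2 scale, with edgeR adjusted p of 4.04e-08 and 2.81e-05. Both calls were lost with limma on log2(TPM + 0.1), at 2.32 and 2.12 (limma adjusted p = 0.103 and 0.125). Within the 3 sample batches matched to both nuclei, Hcrt was higher in LHA by 1.02, 3.67 and 2.75 and Pmch by 1.40, 3.67 and 2.14 on the log2(TPM + 0.5) scale. Against ARH, where 3.9% were called higher, the differences were 5.52 (SE 0.36) for Hcrt and 2.73 (SE 0.38) for Pmch, with edgeR adjusted p of 2.97e-17 and 1.05e-07. Against PVH, where 1.07% were called higher, both were called, Pmch by 6.37 (SE 0.55, edgeR adjusted p = 8.04e-12). The size of the Pmch difference depended on the PVH library, at 8.21 without PVH replicate 1 and 5.59 without PVH replicate 2, and both passed. No fold is given for Hcrt there because PVH held 1 and 3 counts.

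Against VMH, neither peptide gene was called, while 2.77% of genes were called higher in LHA. Hcrt was 0.96 higher in LHA on the log2 scale (SE 0.33, edgeR adjusted p = 0.0387), under the fold threshold, and without the lowest LHA library it was 1.199 higher and passed it, while without LHA replicate 3 it was 0.72 and without VMH replicate 1 it was 0.74. With sample batch in the model it was 0.84 (edgeR adjusted p = 0.0852). Pmch was 0.47 higher in LHA (SE 0.40, edgeR adjusted p = 0.496). By DESeq2 neither was called, and at an unadjusted p under 0.05 edgeR gave 1 of the 2, Hcrt. Nr5a1, which encodes the VMH factor SF-1, was at 45.9 and 21.4 TPM in the VMH libraries and at or below 0.0682 TPM in LHA.

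Within DMH, replicate 2 was lowest for both peptides, at 120 TPM for Hcrt and 358 TPM for Pmch. It was also the lowest DMH library for Ppp1r17 (3.52 TPM), for the thyrotropin-releasing hormone gene Trh (18.3 TPM), for Npvf, the precursor of RFamide-related peptides (17.3 TPM), and for Cartpt, the precursor of the anorexigenic peptide CART (43.0 TPM). The part of the punch position in these levels was not tested.

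Pmch shares sequence with a neighbour. Parpbp, which encodes a PARP1 binding protein and lies on the opposite strand, overlaps Pmch by 944 bases, and 435 of the 749 exon bases of Pmch are also exon of Parpbp. The strand setting of the read assignment was not given in the sources used here, so reads of the pair may not be fully separated. Parpbp was at 3.07, 1.98 and 3.19 TPM in LHA and 2.02 and 2.12 TPM in VMH, against 0.56 to 1.16 TPM in ARH and 0.28 to 0.30 TPM in PVH. It was called higher in LHA than in the other nuclei by 1.803 on the log2 scale (SE 0.27, edgeR adjusted p = 1.31e-06). Its highest levels were in mESCs, at 11.2 to 15.6 TPM.

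Pmch exceeded Hcrt in every hypothalamic library, by a proportion that overlapped between LHA, VMH and DMH and was more lopsided in ARH. The ratio of Hcrt to Pmch TPM was 0.236 to 0.365 over the LHA libraries, 0.191 to 0.261 in VMH and 0.207 to 0.334 in DMH. In ARH it was 0.0200 to 0.0574. In PVH it was 0.00819 to 0.0169, but on 3 counts and 1 count of Hcrt, a level also seen outside the hypothalamus. The ranges of LHA, VMH and DMH overlapped, and every ARH and PVH library lay below all of them. For LHA against the 11 other hypothalamic libraries, the mean log2 ratio with a pseudocount of 0.5 TPM was -1.70 ± 0.33 (SD, n = 3) against -3.31 ± 1.65 (SD, n = 11), a difference of 1.61 (exact permutation test, two-sided, p = 0.0604), with the PVH libraries included. Libraries of 1 nucleus are not independent samples of the hypothalamus, and p fell under 0.05 when LHA replicate 1, VMH replicate 2, DMH replicate 1 or DMH replicate 2 was left out, to between 0.0256 and 0.0490, and rose to 0.179 without LHA replicate 2 and to 0.231 without LHA replicate 3. Within the 3 sample batches that hold LHA the difference was 1.88, 1.46 and 2.10. The other nuclei present differed between these batches, each of which held PVH or ARH. Only DMH was present in all 3, with log2 ratios of -1.70, -1.58 and -2.06 against -2.08, -1.57 and -1.45 in LHA.

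**Figure D2:**
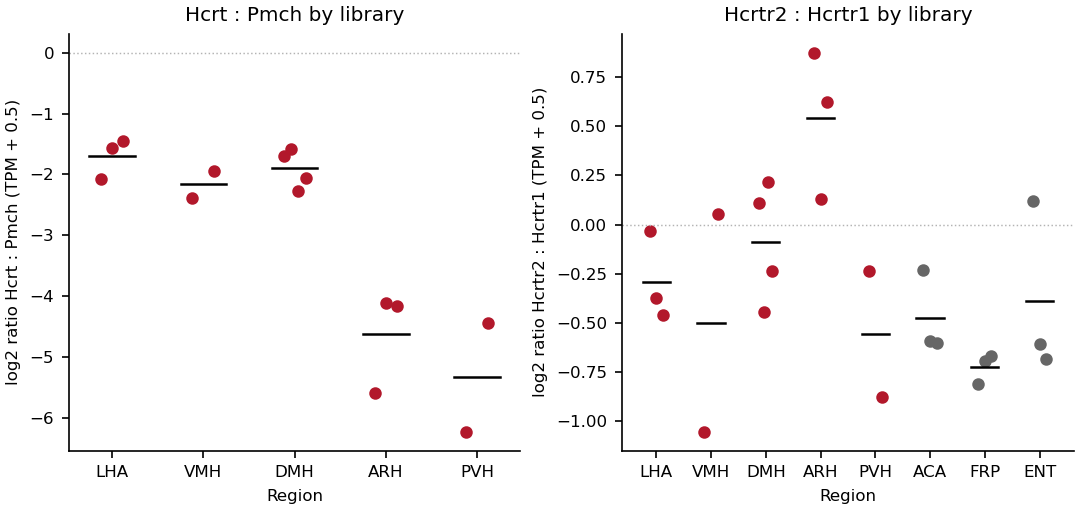
Ratios of Hcrt to Pmch and of Hcrtr2 to Hcrtr1 in every library shown, on the log2 scale with a pseudocount of 0.5 TPM. Points are libraries and lines are group means. The Hcrt to Pmch ratio of LHA, VMH and DMH overlaps, and ARH and PVH lie lower.

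The receptor genes were spread far more widely than the peptide genes and at far lower levels, with group means of at most 16.0 TPM for Hcrtr1, 8.90 TPM for Hcrtr2 and 52.6 TPM for Mchr1. The 5 hypothalamic nuclei held 38.1% of the summed group means of Hcrtr1, 47.1% of Hcrtr2 and 28.0% of Mchr1, against 99.7% of Hcrt and 99.5% of Pmch. Each receptor had a different region at its top: PB for Hcrtr1, ARH for Hcrtr2 and ACB for Mchr1.

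Hcrtr1 (ENSMUSG00000028778, minus strand, chr4:130130217-130139359) encodes orexin receptor 1, which prefers orexin A. It was highest in PB, at 15.8, 15.3 and 16.96 TPM (269, 259 and 287 counts), and every PB library lay above every other library of the series. VMH followed with 12.0 and 6.396 TPM, and the gap between the PB and VMH means exceeded the larger SD. The VTA libraries were at 1.87, 10.5 and 7.75 TPM, the lowest being the library rich in mitochondrial transcripts. DVC was at 6.19 ± 0.488 TPM (SD, n = 3), DMH at 5.92 ± 0.909 (SD, n = 4), ARH at 5.91 ± 0.996 (SD, n = 3), CBN at 4.93 ± 2.47 (SD, n = 3), NTS at 4.75 ± 0.754 (SD, n = 4), LHA at 4.69 ± 1.27 (SD, n = 3) and PVH at 4.00 ± 1.45 (SD, n = 2). From VMH to PVH, no neighbours in this order differed by more than their spread. Hcrtr1 was at 0.173 TPM on average in CUL4-5, on 1 to 4 counts per library.

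The PB punches also carried genes of several target neurons of the peptides. Of 10 such genes, 8 were called higher in PB than in the other adult regions and 1 lower, where 4.17% of all genes were called higher and 1.68% lower, with a median log2 difference of 3.77. Dbh, the enzyme that makes noradrenaline, was at 89.0, 92.7 and 163 TPM and the noradrenaline transporter Slc6a2 at 41.6, 44.8 and 84.6 TPM in the PB libraries, against at most 0.13 TPM of either in the adult hypothalamus. The summed TPM of this pair of locus coeruleus markers was 131 to 247 in PB and 3.86 to 29.3 in NTS. The serotonin neuron genes Tph2 and Slc6a4 averaged 40.1 and 26.4 TPM in PB, and the acetylcholine genes Chat and Slc18a3 32.6 and 32.4 TPM. In CBN, the library with the most Hcrtr1 (7.74 TPM, replicate 2) also had the most Dbh, at 114 TPM, whereas replicate 3 had 3.92 TPM of Hcrtr1 and 57.5 TPM of Dbh, and replicate 1 had 3.12 TPM of Hcrtr1 and 2.32 TPM of Dbh. Replicates 1 and 3 had similar Hcrtr1 at very different Dbh. In CENT2, replicate 1 had 4.70 TPM of Hcrtr1 against 0.411 to 2.24 TPM in the others, together with 146 TPM of Tph2, the enzyme of serotonin neurons. The part of these cells in the Hcrtr1 levels was not tested.

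Hcrtr2 (ENSMUSG00000032360, minus strand, chr9:76225880-76323856) encodes orexin receptor 2, which binds both orexins. It was highest in ARH, at 9.23, 6.82 and 10.6 TPM (259, 259 and 349 counts). VMH had 5.50 and 6.66 TPM and DMH 5.65, 4.56, 6.04 and 5.85 TPM, so that all ARH libraries lay above all libraries of these nuclei. DVC was at 4.60 ± 0.468 TPM (SD, n = 3), PB at 4.21 ± 0.916 (SD, n = 3), LHA at 3.68 ± 0.548 (SD, n = 3) and PVH at 2.48 ± 0.042 (SD, n = 2). The lowest adult levels were 0.2495 TPM in UVU and 0.176 TPM in CUL4-5. Hdc, which makes histamine and marks the tuberomammillary neurons, was at 96.9, 47.9 and 92.5 TPM in ARH, and the ARH library with the least Hcrtr2 also had the least Hdc. In DMH, Hdc was at 20.6 to 43.7 TPM and in LHA at 6.87 to 11.4 TPM. The part of histamine neurons in the Hcrtr2 level was not tested.

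Hcrtr2 is annotated with coding transcripts that differ at the end, and the ends are shown because both were assigned reads. The sequences are from GENCODE M21 transcripts, 5′ to 3′, with 30 shared bases in lower case and the bases of each transcript alone in capitals.
Hcrtr2-201: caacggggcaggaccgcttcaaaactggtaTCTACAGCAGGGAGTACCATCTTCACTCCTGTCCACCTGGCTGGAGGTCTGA
Hcrtr2-203: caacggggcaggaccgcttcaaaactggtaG
They share 1331 coding bases. Hcrtr2-201 ends with 52 bases of its own, stop codon included, and encodes 460 residues, and Hcrtr2-203 encodes 443 residues. Over the adult libraries, Hcrtr2-201 took 75.3% of the gene's TPM and Hcrtr2-203 22.8%. The share of Hcrtr2-203 was 13.2 to 35.4% in ARH, 2.53 to 32.8% in DMH, 15.9 to 34.9% in LHA, 10.95 to 45.4% in PB and 26.5 to 46.2% in ACB, and these ranges overlapped. It was 12.7 to 15.6% in VMH, below LHA and ACB, and 24.1 to 26.3% in PVH, 13.7 to 20.8% in CBN and 11.1 to 25.2% in VTA, all below ACB. These differences between regions were not tested. For the peptides and Mchr1 the choice of transcript hardly mattered, with 99.95% of Hcrt on Hcrt-201 and 100% of Pmch and Mchr1 on a single transcript.

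Mchr1 (ENSMUSG00000050164, plus strand, chr15:81235499-81238964) encodes MCH receptor 1 and had the highest mean TPM of the receptor genes in all adult regions other than PB, VTA, CBN and CENT2. In ACB it was at 47.2, 63.8 and 46.9 TPM (824 to 1337 counts), and no other library of the series came near these values. The cortex followed, with ENT at 18.6 ± 0.646 TPM, FRP at 15.1 ± 2.70 and ACA at 13.8 ± 0.509 (SD, n = 3 each). The hypothalamic libraries lay between 8.07 and 13.04 TPM, with means of 12.0 TPM in ARH, 11.5 in VMH, 11.3 in DMH, 10.8 in PVH and 8.53 in LHA. The hindbrain regions were at 5.60 TPM in NTS, 6.08 in PB and 8.18 in DVC. In CUL4-5 it was at 0.401 TPM and in UVU at 0.490 TPM. No count of Mchr1 was found in the 4 mESC libraries, where 3 counts are the most that this depth would still allow and amount to 0.162 to 0.231 CPM, the count scaled to the library's total. In ACB, the medium spiny neuron genes Drd1, Drd2 and Adora2a summed to 424 to 552 TPM.

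**Figure D3:**
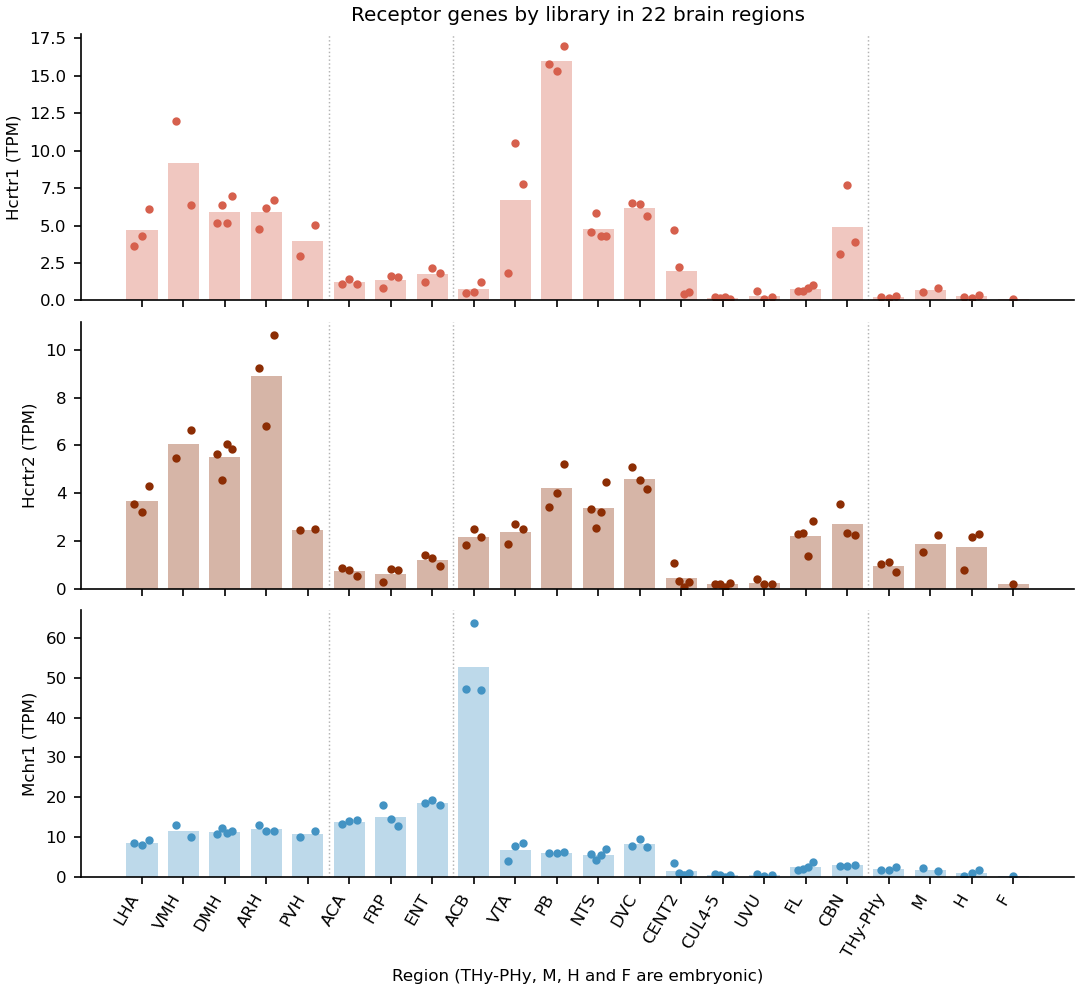
TPM of Hcrtr1, Hcrtr2 and Mchr1 in every library of the 22 brain regions on a linear axis. Bars are group means, points are libraries and dotted lines separate hypothalamus, cortex, other adult regions and embryonic groups. The highest bars are PB for Hcrtr1 (16.0 TPM), ARH for Hcrtr2 (8.90 TPM) and ACB for Mchr1 (52.6 TPM).

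Among the adult hypothalamic nuclei, few differences of the receptor genes from LHA passed the test. Against the mean of the other 4 nuclei, the log2 difference of LHA was -0.18 for Hcrtr1 (SE 0.35), -0.41 for Hcrtr2 (SE 0.29) and -0.32 for Mchr1 (SE 0.25). The edgeR adjusted p were 0.822, 0.36 and 0.441, and 2.73% of all genes were called lower in LHA. For Mchr1, the 3 LHA libraries (8.07 to 9.13 TPM) nevertheless lay below every library of the other nuclei (10.01 to 13.04 TPM), and within the 3 sample batches that hold LHA the difference was -0.30, -0.50 and -0.32 on the log2(TPM + 0.5) scale. It was -0.10, -0.39 and -0.02 for Hcrtr1 and -0.07, -0.93 and -0.32 for Hcrtr2. Against DMH alone, the 3 receptor genes had lower values in LHA in each of these batches, with differences of -0.46, -0.51 and -0.18 for Hcrtr1, -0.60, -0.44 and -0.41 for Hcrtr2 and -0.34, -0.57 and -0.31 for Mchr1. At an unadjusted p under 0.05 edgeR gave 0 of the 3, and DESeq2 called 0. Nucleus by nucleus, 1 of 12 receptor tests was called, where 1.43% of all genes were called lower in LHA than in PVH, 1.84% than in DMH, 3.47% than in VMH and 5.83% than in ARH. Hcrtr2 was lower in LHA than in ARH by a log2 difference of -1.13 (SE 0.35, edgeR adjusted p = 0.00999). Without ARH replicate 3 the difference was -0.98 and no longer passed.

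Each adult region was then set against the mean of the other 17 adult regions, which gave 54 tests of the receptor genes, of which 35 were called. In the regions and directions of these calls, 2.88 to 10.3% of all genes were called. These comparisons share libraries and animals, so the calls are not independent of each other. With sample batch in the model 35 were called as well. In PVH none of the receptor genes was called, where 5.01% of all genes were called in either direction.

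Hcrtr1 was called higher in 9 regions. The difference was 2.92 on the log2 scale in PB (SE 0.24, edgeR adjusted p = 7.61e-14), where 4.17% of all genes were called higher. It was 1.88 in VMH (6.02% of genes called higher), 1.74 in VTA (6.89%), 1.47 in DVC (4.55%), 1.23 in DMH (5.68%), 1.21 in ARH (8.93%), 1.21 in CBN (7.86%), 1.15 in NTS (5.36%) and 1.07 in LHA (3.36%). The calls in CBN and LHA each depended on a library: without CBN replicate 2 the value was 0.67 (edgeR adjusted p = 0.153), and without LHA replicate 3 it was 0.85. With limma on log2(TPM + 0.5) the values in VTA (0.94), NTS (0.73), LHA (0.69) and CBN (0.69) fell under the fold threshold. Hcrtr1 was called lower in 5 regions, at -1.08 in ACA (7.59% of genes called lower), -2.03 in ACB (5.49%), -1.73 in FL (4.55%), -3.62 in UVU (8.67%) and -4.46 in CUL4-5 (10.3%). The ACA call was lost whichever ACA library was left out, at values between -1.12 and -1.01 that still passed the fold threshold but not the adjusted p, and it was -0.98 with limma. With the 21 other brain regions as reference, embryonic ones included, Hcrtr1 was -0.33 in ACA and -0.98 in FL, neither called.

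Hcrtr2 was called higher in 7 regions, at 2.28 on the log2 scale in ARH (SE 0.20, edgeR adjusted p = 1.03e-13), 1.78 in VMH, 1.61 in DMH, 1.41 in DVC, 1.18 in PB, 1.08 in LHA and 1.05 in NTS. The LHA call was lost without LHA replicate 3, at 1.00 just under the threshold, and the NTS call without NTS replicate 4, at 0.86, and with the replicate number as a block, at 0.97. With limma on log2(TPM + 0.5), PB (0.90), LHA (0.73) and NTS (0.60) were under the fold threshold. These are the regions where Hcrtr1 was called higher, without VTA and CBN. Hcrtr2 was called lower in 5 regions, at -1.54 in FRP (5.22% of genes called lower), -1.35 in ACA, -2.24 in CENT2 (7.02%), -3.22 in UVU and -3.97 in CUL4-5. Without CENT2 replicate 1, the library rich in Tph2, the CENT2 value was -3.17.

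Mchr1 was called higher in 4 regions, at 3.30 on the log2 scale in ACB (SE 0.16, edgeR adjusted p = 2.87e-23; 7.3% of genes called higher), 1.85 in ENT (7.52%), 1.44 in FRP (7.46%) and 1.36 in ACA (8.07%). It was called lower in the 5 cerebellar regions, at -1.05 in CBN (2.88% called lower), -1.39 in FL, -2.32 in CENT2 (-3.21 without CENT2 replicate 1), -3.98 in UVU and -4.30 in CUL4-5. With the 21 other brain regions as reference CBN was -0.51 and FL -0.85, neither called. In none of the 5 hypothalamic nuclei was it called, with log2 values between 0.53 and 0.92. All 5 had an unadjusted p under 0.05 and 4 an adjusted p under 0.05 in edgeR, below the fold threshold, and DESeq2 called 0.

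**Figure D4:**
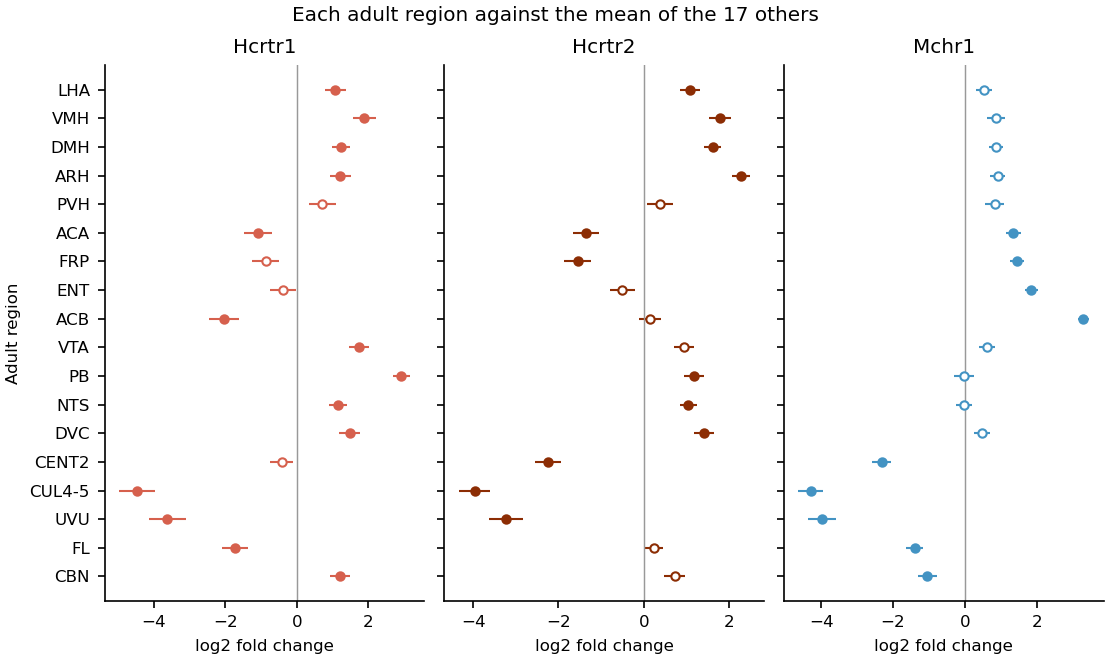
Log2 difference of each adult region from the mean of the other 17 adult regions for Hcrtr1, Hcrtr2 and Mchr1. Error bars are standard errors, and filled points are called while open points are not. The highest points are PB for Hcrtr1 (2.92), ARH for Hcrtr2 (2.28) and ACB for Mchr1 (3.30).

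Taking the hypothalamus as a whole against the 13 other adult regions, all 5 genes were called higher, where 6.11% of all genes were. Hcrtr1 was higher by 1.60 (SE 0.17, edgeR adjusted p = 8.82e-12), Hcrtr2 by 1.86 (SE 0.13, 8.95e-18) and Mchr1 by 1.05 (SE 0.12, 1.48e-10) on the log2 scale. For Mchr1 this value rests on the 5 cerebellar regions in the reference, and with limma on log2(TPM + 0.5) it was 0.97, under the fold threshold. With these left out, an alternative chosen after seeing the data, Mchr1 was -0.30 (edgeR adjusted p = 0.0546), Hcrtr1 was 0.81 and no longer called, and Hcrtr2 was 1.19 and still called. The mean TPM of Mchr1 was 10.8 over the nuclei and 10.3 over the other regions. The peptide genes had counts near 0 in the reference, so no fold is given for them: their mean TPM over the nuclei were 518 for Hcrt and 2016 for Pmch, against 0.409 and 1.55 over the other adult regions.

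The balance of the orexin receptors also varied. The ratio of Hcrtr2 to Hcrtr1 TPM was 1.10 to 1.92 in the ARH libraries and 0.217 to 0.307 in PB. It was 1.801 to 4.66 in ACB and 1.59 to 3.77 in FL, so that Hcrtr2 exceeded Hcrtr1 in every library of these regions, though both receptors were low there. The mean log2 ratio, with a pseudocount of 0.5 TPM, was -0.12 ± 0.52 (SD, n = 14) in the hypothalamus and -0.53 ± 0.29 (SD, n = 9) in cortex, a difference of 0.41 (exact permutation test, two-sided, p = 0.0413). Leaving out any of 14 single libraries put p over 0.05, up to 0.0740 without FRP replicate 1. Within the 4 sample batches that hold both areas the difference was 0.18, 0.74, 0.42 and 0.14, and the libraries of 1 region are not independent samples of the wider area.

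The embryonic hypothalamus at E14.5 had Pmch but little Hcrt. Pmch was at 18.0003, 26.5 and 42.2 TPM (95, 157 and 254 counts) in THy-PHy, and Hcrt at 1.06, 0.948 and 0.929 TPM, which is 4 counts in each library. Against M and H, with at most 7 counts of Pmch, Pmch was higher in THy-PHy by 5.82 on the log2 scale (SE 0.64, edgeR adjusted p = 1.17e-09), and 1.44% of all genes were called higher. Without M replicate 1 it was 7.79 and still called. Hcrt was not called (edgeR adjusted p = 0.201), and no fold is given because 4 counts stood against 0 or 1. With limma on log2(TPM + 0.5) and log2(TPM + 0.1) it was called (limma adjusted p = 0.0482 and 0.0355).

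None of the receptor genes was called between THy-PHy and M and H, where 1.74% of all genes were called lower, by edgeR or DESeq2, and 1 of the 3, Hcrtr2, had an unadjusted p under 0.05 in edgeR. Hcrtr1 was at 0.215, 0.195 and 0.264 TPM in THy-PHy, on 3 or 4 counts. Hcrtr2 was at 1.05, 1.10 and 0.718 TPM in THy-PHy, 1.54 and 2.23 TPM in M and 0.801, 2.17 and 2.30 TPM in H. Its log2 difference was -0.80 (SE 0.35, edgeR adjusted p = 0.162). Mchr1 was at 1.67, 1.68 and 2.59 TPM in THy-PHy, with a difference of 0.60 (edgeR adjusted p = 0.332), and with the single F library in the reference it was 1.55 and was called.

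Between stages, all 5 genes were called lower in the embryonic than in the adult hypothalamus, as were 20% of all genes tested. The log2 differences were -6.49 for Hcrt (SE 0.87), -4.98 for Pmch (SE 0.41), -4.82 for Hcrtr1 (SE 0.55), -2.30 for Hcrtr2 (SE 0.33) and -2.38 for Mchr1 (SE 0.30), with edgeR adjusted p of at most 2.21e-08. The Hcrt and Hcrtr1 values rest on 3 or 4 counts per embryonic library. Adult and embryonic libraries were collected in separate sample batches, so stage and batch cannot be told apart.

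Whether the hypothalamic excess itself differed with stage was tested as the adult difference less the embryonic one, a test added after seeing the data, in which 5.38% of genes were called higher. The references differed in kind, being the 13 other adult regions, cerebellum included, at P56 and M and H alone at E14.5. With these, the excess was larger in the adult for Hcrtr2, by 2.66 on the log2 scale (SE 0.39, edgeR adjusted p = 5.66e-07), and for Hcrtr1, by 2.29 (SE 0.69, edgeR adjusted p = 0.0117). It was not called for Hcrt (edgeR adjusted p = 0.189; no value is given because both references were near 0 counts), Pmch (3.81, SE 1.59, edgeR adjusted p = 0.0782) or Mchr1 (0.45, SE 0.36, edgeR adjusted p = 0.445). The call for the peptides depended on the tool: with DESeq2 both were called, with DESeq2 adjusted p of 0.000173 for Hcrt and 9.64e-06 for Pmch, and with limma both were called too. With a single library left out, Pmch was called by edgeR without DMH replicate 2 (3.87) and without PVH replicate 2 (3.96), and its value dropped to 1.82 without M replicate 1.

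The receptor values also depended on the reference, in alternatives chosen after seeing the data. Hcrtr1 was no longer called with cerebellar regions left out of the adult reference (1.499, edgeR adjusted p = 0.135) or with F added to the embryonic one (1.34, edgeR adjusted p = 0.381). With VTA, PB, NTS and DVC, the adult midbrain and hindbrain regions sampled, as the adult reference, Hcrtr1 was at 0.12 (SE 0.65, edgeR adjusted p = 0.995). Hcrtr2 was still called under the same changes, at 1.99, 1.60 and 1.06, the last with an edgeR adjusted p of 0.0386. Pmch was called with F added (3.998, edgeR adjusted p = 0.0216).

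Genes of the same neurons and pathway were followed through the same comparisons. Of 12 genes known from orexin or MCH neurons, 1 was called higher in LHA than in the other nuclei and 1 lower, where 2.32% of all genes were called higher and 2.73% lower, with a median log2 difference of -0.10 against -0.02 for all genes. Gad1, which makes GABA, was higher by 1.14, at 561, 569 and 432 TPM in LHA against 188 to 354 TPM in the other nuclei. Qrfp, the precursor of the feeding peptide QRFP, was called lower. No fold is given for it because it stood at no more than 0.08 TPM in LHA. Pdyn, which encodes dynorphin and is co-expressed with Hcrt, was at 24.03, 30.2 and 32.6 TPM in LHA, 87.4 and 105 TPM in VMH and 104 to 107 TPM in ARH. Cartpt, a gene of many MCH neurons, was at 79.6, 133 and 118 TPM in LHA and at 299 to 324 TPM in ARH.

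Of the 9 other lateral hypothalamic peptide genes, 8 could be tested in this comparison, of which 1 was called higher and 3 lower. Nts, the neurotensin precursor, was higher in LHA by 1.95 on the log2 scale, at 51.7, 52.7 and 69.9 TPM against at most 25.1 TPM in the other nuclei. Gal, the galanin precursor (-1.71), Trh (-1.47) and Npvf (-2.90) were lower, and the list's median was 0.02. None of 12 G protein and effector genes was called by edgeR: 3 had an unadjusted p under 0.05 and 2 an adjusted p under 0.05, with differences below the fold threshold, namely Rgs8 (0.65) and Gna11 (-0.21). Of 10 genes of the target neurons, the dopamine transporter Slc6a3 (1.45) and the acetylcholine enzyme Chat (2.20) were higher, with Chat at 7.00, 0.83 and 1.86 TPM over the LHA libraries. Slc6a3 was higher in ARH than in LHA, with means of 6.95 and 2.98 TPM and a log2 difference of LHA from ARH of -1.09 (edgeR adjusted p = 0.00347). Against ARH, 0 of the 10 were called higher in LHA and 3 lower, namely Slc6a3, Th and Hdc, where 3.9% of all genes were higher and 5.83% lower.

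Over the whole adult hypothalamus against the other adult regions, 8 of the 12 neuron genes were called higher, where 6.11% of all genes were, and 0 lower, with a median of 1.797 against 0 for all genes. Cartpt (4.45), Pdyn (3.28), the neurokinin B receptor Tacr3 (2.51), the vesicular glutamate transporter Slc17a6 (2.43) and the transcription factor Lhx9 (2.32) led them. Of the 8 peptide genes tested, 6 were higher, among them Npvf (7.17), Trh (6.56) and Gal (5.19). Of the 12 G protein and effector genes, Mrap2, a melanocortin receptor accessory protein, was higher (1.37) and Rgs8, a regulator of G protein signalling, lower (-1.06), with a median of 0.03. Of the 10 target neuron genes, 5 were higher, with Hdc at 2.38 and Slc6a3 at 2.14, and 2 were lower, where 2.74% of all genes were, namely Slc6a2 (-2.82) and Tph2 (-1.82).

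In the embryonic hypothalamus against M and H, where 1.44% of all genes were called higher and 1.74% lower, 3 of the 8 peptide genes were called higher, while the list's median log2 difference was -0.45 against 0.01 for all genes. Trh (5.42), Npvf (3.96) and Gal (2.74) were those called, as were Nptx2 (2.19) and Pdyn (1.51) of the neuron genes, while Lhx9 (-1.95), Tacr3 (-2.32) and the transcription factor Ebf2 (-2.33) were lower. Between the embryonic and the adult hypothalamus, 7 of 8 peptide genes and 6 of 12 neuron genes were called lower in the embryo, as were 20% of all genes. Called higher in the embryo, as were 18.2% of all genes, were Lhx9 (1.92), Ebf2 (2.47) and Dbx1, a factor of progenitor cells, for which no fold is given because it was near 0 in the adult. Of the 12 G protein and effector genes, 5 were lower, Mrap2 by a log2 difference of -4.71, and Gnai3, an inhibitory G protein subunit, was higher (1.74).

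Across the 18 adult region means of log2(TPM + 0.5), Hcrt and Pmch had a Pearson r of 0.95, and Hcrtr1 and Hcrtr2 one of 0.81. Mchr1 had r of 0.32 with Hcrtr1 and 0.48 with Hcrtr2, and 0.36 with Pmch. These are descriptions over regions whose libraries were prepared alike and differ in depth. The genes most like each member, of 17955 compared, were Mup6 (0.96), Pmch (0.95) and Parpbp (0.94) for Hcrt, and Hcrt (0.95), Prdm12 (0.94) and Cdhr2 (0.92) for Pmch. Mup6, a major urinary protein gene, was at 5.34 TPM in LHA and 2.90 TPM in VMH. For Hcrtr1 they were Ccdc160 (0.94), Pmfbp1 (0.94) and Egfl6 (0.94), and for Hcrtr2 they were Sod1 (0.97), Rxra (0.96) and Idh1 (0.95). For Mchr1 they were Prkar2b (0.96), Nsg2 (0.96) and Ptpn5 (0.96), each with its highest mean in ACB. With the 4 embryonic regions added, r was 0.35 for Parpbp with Hcrt, 0.29 for Prdm12 with Pmch, 0.24 for Pmfbp1 with Hcrtr1, 0.16 for Idh1 with Hcrtr2 and 0.42 for Prkar2b with Mchr1, the lowest among the 3 genes of each member, while Hcrt with Pmch stayed at 0.94, and none of the 3 genes closest to Hcrtr1, to Hcrtr2 or to Mchr1 stayed among the 3 closest.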

How the data were processed

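RNA from pooled frozen-section punches, or cultured mESCs, was made into stranded mRNA libraries and sequenced as single reads. The authors called bases with CASAVA 1.8.2 and pseudoaligned with Kallisto to GRCm38 cDNA. They deposited estimated counts per transcript, not normalized, and TPM per transcript and summed per gene. The members and lists were chosen with earlier results of these data known. Of 109282 transcripts, 107987 (98.8%) were matched to GENCODE M21 genes. Gene counts are the rounded sums over matched transcripts, which left out 0.418 to 0.767% of a library's counts. Tests on gene counts used edgeR 4.0.16 (R 4.3.3) with TMM factors, its default filter on low counts and a single model of the 70 libraries with a coefficient per group, and ratios were tested by exact permutation with SciPy 1.17.1. On simulated data, 180 of 200 changed genes were tested and 178 called with the right sign, with 2 false calls. Alternatives were DESeq2 1.42.0, limma 3.58.1 on log2(TPM + 0.5) or log2(TPM + 0.1), no filter, a replicate block, and each library left out. Named are the 5 members, the 3 genes closest to each by Pearson r over region means (mean of 1 TPM or more in an adult region), and listed genes that were called or were among the 3 highest in TPM. Parpbp and the marker genes were named beside results they touch. The study lists sample batches by region. Libraries were matched to them by the library numbers in the labels, which gave 8 brain batches with separate number ranges. The match library by library was not found in the sources used here. Sample batch was added to the model as an alternative. P-values measure the spread between pooled libraries.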

Additional observations from a re-analysis of the deposited data

Results flagged for a closer look

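Hcrt in CENT2 was at 1.08 TPM in the highest of 4 libraries, which is 4 counts, and at 0 in the other 3. It was listed by Dixon's test, but with the other 3 at 0 any count would have been, so the test says nothing of these 4 counts. Over the 25 such tests of groups of 4 libraries, chance alone marks about 1 in 20 groups.

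The excess of the hypothalamus over other regions differed between stages for 2 genes with the references used. The adult log2 difference exceeded the embryonic one by 2.29 for Hcrtr1 (edgeR adjusted p = 0.0117) and by 2.66 for Hcrtr2 (edgeR adjusted p = 5.66e-07). The adult reference was 13 regions and the embryonic one M and H alone. With VTA, PB, NTS and DVC as the adult reference, Hcrtr1 was 0.12 and not called and Hcrtr2 1.06 (edgeR adjusted p = 0.0386). With sample batch in the model they were 2.19 (edgeR adjusted p = 0.0351) and 2.68 (edgeR adjusted p = 3.15e-07). Adult and embryonic sample batches do not overlap, so stage and batch cannot be told apart.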

How the results depend on the processing

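No alternative run turned the direction of Hcrt or Pmch. With limma and log2(TPM + 0.5), Mchr1 in the adult hypothalamus was 0.97, under the fold threshold, genes called fell from 1767 to 1062, and embryonic Hcrt was 1.33 and called, as it was at 2.69 with log2(TPM + 0.1). With log2(TPM + 0.1), LHA less DMH was 2.32 for Hcrt and 2.12 for Pmch, neither called (limma adjusted p = 0.103 and 0.125). With cerebellar regions left out of the reference, Hcrtr1 was 0.81 and Mchr1 -0.30. With F in the embryonic reference, Hcrtr1 was 0.25 and Hcrtr2 0.26, both turned in direction and neither called, and Mchr1 was 1.55. In the adult difference less the embryonic one, Mchr1 turned to -0.91 without cerebellum, -0.49 with F and -0.092 with VTA, PB, NTS and DVC as the adult reference, never called. The cause was not tested. With each library left out in turn, LHA less VMH was 0.72 to 1.22 for Hcrt, LHA less ARH was -1.25 to -0.98 for Hcrtr2, genes called were 227 to 488 against PVH (499 with all libraries; 227 without PVH replicate 2) and 683 to 1128 against VMH (1248; 683 without VMH replicate 2), the log2 Hcrt to Pmch ratio was 1.32 to 1.80026 and the log2 Hcrtr2 to Hcrtr1 ratio 0.33 to 0.49. Of the calls by region, Hcrtr1 in VTA was 0.94 and Hcrtr2 in PB 0.90 with limma and log2(TPM + 0.5), under the fold threshold, and with the 21 other brain regions as reference Mchr1 in CBN was -0.51. Libraries of the other regions were not left out of the tests of each region.

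Replicate numbers do not follow the sample batches: deviations of 669 same-numbered pairs of libraries had a median r of 0.015 with 21.4% over 0.1, against -0.0046 and 15.5% for pairs of other numbers. For 368 pairs of the same sample batch the median r was 0.054 with 34.8% over 0.1, against -0.0073 and 13.8% for other pairs. With sample batch in the model, an alternative added after seeing the data, no call of the 5 genes changed in the comparisons where it could be fitted, and 1073 genes were called for LHA (1009 without). With a replicate block, Hcrt in LHA against the other nuclei was 4.94, 1002 genes were called (1009 without), and 34 of the 54 receptor tests were called (35 without), the NTS call of Hcrtr2 being lost at 0.97. Low counts limit Hcrt outside the hypothalamus and Hcrtr1 in the embryo.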

Other observations

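Hcrtr1 is annotated with 4 transcripts, and the assignment among them varied between libraries of the same region. Over the adult libraries Hcrtr1-201 took 57.4% of the gene's TPM, Hcrtr1-202 22.3%, Hcrtr1-204 14.3% and Hcrtr1-203 5.93%. In PB, Hcrtr1-201 was at 13.1, 11.4 and 14.7 TPM. In LHA it was at 2.98e-08, 1.03 and 5.01 TPM, with Hcrtr1-203 at 2.60 TPM in the library where Hcrtr1-201 was lowest. The summed gene level of these LHA libraries spanned 3.64 to 6.09 TPM.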
